A study of Mus musculus with 37 samples.

Results

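Kupffer cells, the resident macrophages of the liver, were followed through 10 marker genes in RNA sequencing of whole mouse liver. The genes were Clec4f, Vsig4, Timd4, Cd5l, Marco, Adgre1, C1qa, C1qb, C1qc and Csf1r. Each was chosen by name as an established marker of these cells, with earlier results of these data known. They are 10 of the 55487 genes in the table, and all 10 passed the filter on low counts, as did 15564 genes in all. The 37 libraries came from NOX4-/- mice (knockout, KO), which lack an NADPH oxidase that makes hydrogen peroxide, and from wild-type mice (WT). All animals had been operated on, either by partial hepatectomy, in which most of the liver is cut away and the remnant grows back, or by a sham operation without removal of tissue. After hepatectomy, KO livers were sampled at 6 h (3 libraries), 24 h (4), 48 h (4) and 7 d (3), and WT livers at 6 h (3), 24 h (3), 48 h (4) and 7 d (3). The 5 KO sham livers were taken at 24 h, 48 h, 48 h, 72 h and 6 h (replicates 1 to 5), and the 5 WT sham livers at 7 d, 48 h, 24 h, 48 h and 6 h. Only males contributed to the 6 h hepatectomy groups, while each of the remaining 8 groups had males and females. The labels give no strain, age or batch and do not say how the knockout was made. They name separate samples without naming animals. The p-values therefore weigh differences between groups against the spread between libraries, estimated in 1 model over all 37. The study asks whether loss of Nox4 alters the pace of liver regeneration, and the marker genes add what happened to the macrophage transcripts over that course.

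Kupffer cells sit in the liver sinusoids, where they take up bacteria, worn red cells and cell debris from portal blood. In the steady state they renew themselves locally, depend on signalling through the CSF1 receptor, and take on their identity from cues of neighbouring endothelial, stellate and parenchymal cells. Macrophages are also a source of signals to hepatocytes after loss of liver mass. Clec4f encodes a sugar-binding lectin that in mice is largely restricted to Kupffer cells. Vsig4 encodes a complement receptor used to capture particles from blood, Timd4 a receptor for phosphatidylserine on dying cells, and Cd5l a secreted protein of macrophages. Marco is a class A scavenger receptor for bacteria and particles, and Adgre1 encodes an adhesion receptor long used as a macrophage antigen. C1qa, C1qb and C1qc encode the chains of C1q, the recognition subunit of the classical complement pathway. Csf1r encodes the receptor for the growth factor CSF1.

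On the GRCm38 genome the C1q genes stand near each other on the minus strand, C1qb (ENSMUSG00000036905.8) at chr4:136880129-136886187, C1qc (ENSMUSG00000036896.5) at chr4:136889804-136893065 and C1qa (ENSMUSG00000036887.5) at chr4:136895917-136898803. Clec4f (ENSMUSG00000014542.3) lies at chr6:83644542-83656187, Marco (ENSMUSG00000026390.7) at chr1:120474538-120505024 and Cd5l (ENSMUSG00000015854.7) at chr3:87357881-87371073. Vsig4 (ENSMUSG00000044206.3) lies at chrX:96247203-96293438, Timd4 (ENSMUSG00000055546.6) at chr11:46810800-46844332 and Adgre1 (ENSMUSG00000004730.15) at chr17:57358691-57483527. RefSeq start-site windows (build GRCm38.p6) matched 7 members, which leaves Adgre1, C1qa and Csf1r named only. The 250 bases before the start site are shown for Clec4f and Marco, whose estimates at 24 h had opposite signs in both genotypes, and for C1qb and C1qc, whose levels varied together across libraries. The RefSeq starts of Clec4f and C1qc lie inside the gene spans given above. Capitals mark letters of the motifs searched on both strands in windows of 250 bases before to 50 bases after the start.
Clec4f (chr6:83656117-83656366, minus strand): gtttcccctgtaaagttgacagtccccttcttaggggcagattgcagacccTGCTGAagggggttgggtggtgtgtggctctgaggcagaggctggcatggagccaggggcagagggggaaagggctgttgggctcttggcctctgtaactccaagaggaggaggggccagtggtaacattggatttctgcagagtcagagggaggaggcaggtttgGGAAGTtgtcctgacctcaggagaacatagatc
Marco (chr1:120505025-120505274, minus strand): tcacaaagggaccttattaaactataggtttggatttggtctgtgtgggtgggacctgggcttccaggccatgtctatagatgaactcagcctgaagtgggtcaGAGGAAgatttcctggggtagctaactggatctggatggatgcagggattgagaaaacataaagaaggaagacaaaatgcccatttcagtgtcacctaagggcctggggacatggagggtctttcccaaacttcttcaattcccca
C1qb (chr4:136886201-136886450, minus strand): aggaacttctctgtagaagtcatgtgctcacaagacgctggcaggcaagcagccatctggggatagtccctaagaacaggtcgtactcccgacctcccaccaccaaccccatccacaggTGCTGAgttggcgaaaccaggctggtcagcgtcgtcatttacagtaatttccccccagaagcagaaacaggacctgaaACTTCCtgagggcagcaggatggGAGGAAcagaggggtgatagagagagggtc
C1qc (chr4:136892915-136893164, minus strand): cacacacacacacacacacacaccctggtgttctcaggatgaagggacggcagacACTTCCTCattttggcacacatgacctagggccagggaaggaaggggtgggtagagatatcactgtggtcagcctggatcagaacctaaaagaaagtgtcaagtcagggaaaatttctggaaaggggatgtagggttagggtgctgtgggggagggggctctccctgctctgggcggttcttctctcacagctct
The core letters GAGGAA, bound by the myeloid factor PU.1, were in the windows of 5 of 7 members (Marco, Cd5l, C1qb, C1qc and Vsig4), against 28.3% of all 32851 windows. GGAAGT, a core of ETS factors that shares the letters GGAA with GAGGAA and can overlap it, was in 5 of 7 (C1qb, C1qc, Clec4f, Timd4 and Vsig4), against 23.8%. TGCTGA, part of the site of MAF factors, was in 5 of 7 (Cd5l, C1qb, Clec4f, Timd4 and Vsig4), against 19.5%. GTGGGAA, a core of the Notch factor RBPJ, was in 0 of 7, against 6.38%. In the sequences shown, Marco thus carried the PU.1 letters without the ETS and MAF letters, and Clec4f the reverse. These are matches of letters and not measured binding.

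Groups were compared with edgeR's quasi-likelihood test, with sex in the model, and a gene passed, or was called, where its p adjusted over all genes tested was under 0.05. Total counts ranged from 26232544 to 48827025 per library, and each member had between 24 and 13213 counts in a library. Nox4, the targeted gene, had a median of 2.35 CPM (counts scaled to library size with TMM factors; range 0.325 to 4.98) in 12 KO male livers, against 14.4 (3.95 to 23.5) in 11 WT male livers, and these ranges overlapped. In females its median was 0.153 CPM (0 to 0.245) in 7 KO livers, against 1.29 (0.778 to 3.36) in 7 WT livers, with no overlap. Averaged over stages it was lower in KO livers by a log2 change of -2.82 (SE 0.28, edgeR adjusted p = 4.27e-08), while at 6 h and 7 d taken alone it did not pass (adjusted p = 0.0577 and 1). Mitochondrial transcripts took 3.17% to 8.93% of counts. WT sham replicate 5, a male liver taken at 6 h, stood apart with a summed member level of 209.5 CPM, against 527 to 755 CPM in the other 4 WT sham livers. Results against sham are therefore also given without the 6 h sham livers where that changes them.

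In sham livers the members spanned a wide range of abundance. Per kilobase of exon, C1qa had 63.2 CPM and C1qb 56.6 CPM in KO sham livers, against 65.5 and 67.4 in WT sham livers. Cd5l had 49.9 and 65.0, Clec4f 33.2 and 36.9, and C1qc 30.9 and 36.5 CPM per kilobase in KO and WT sham livers. The order depends on the length used, which counts every annotated exon of a gene. That length was 1931 bases for C1qc, against 1040 for C1qa and 1088 for C1qb. Before division by length, C1qc averaged 59.7 CPM in KO sham livers, against 65.8 for C1qa and 61.6 for C1qb. Lower on the same scale stood Vsig4 (13.01 in KO, 14.0 in WT), Csf1r (7.18 in KO, 10.35 in WT) and Marco (6.57 in KO, 7.11 in WT). Adgre1 (3.09 in KO, 4.82 in WT) and Timd4 (2.69 in KO, 2.71 in WT) were the lowest of the members. In 0 of 10 members did KO sham livers pass the test against WT sham livers (edgeR adjusted p of at least 0.695; 0 with an unadjusted p under 0.05; 0 with DESeq2), while 0.276% of all genes passed. The log2 changes between the sham groups lay between -0.37 (SE 0.34, Csf1r) and 0.26 (SE 0.54, Marco), and the ranges overlapped for every member.

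**Figure D1:**
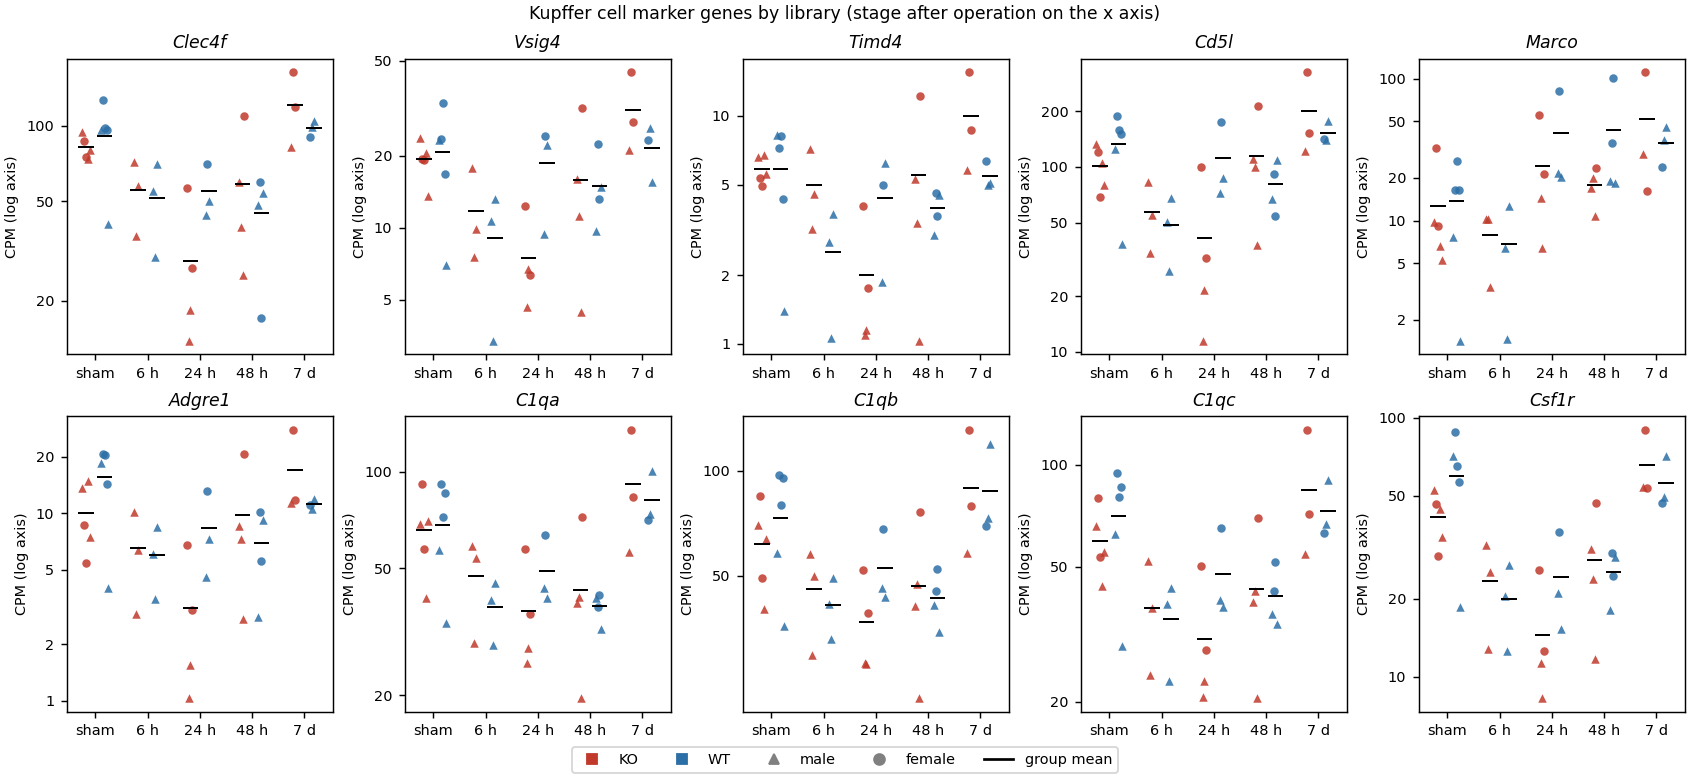
Level of each Kupffer cell marker gene (CPM, log axis) in 37 libraries by stage, with KO in red left of WT in blue, males as triangles, females as circles and group means as bars. The KO 24 h livers reach the lowest levels of Clec4f, at 13.9 CPM, while Marco in the same group spans 6.44 to 55.4 CPM.

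The clearest change was in KO livers 24 h after hepatectomy, where 9 of 10 members fell against KO sham livers and Marco did not pass the test. For comparison, 12% of the 15564 genes tested were lower in that contrast. The median log2 change was -1.56 over the 10 members and -0.01 over all genes tested. In whole liver, fewer Kupffer cells and less of these transcripts per cell cannot be told apart.

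The lectin gene Clec4f had 56.3, 13.9, 18.3 and 27.0 CPM in the 4 KO 24 h livers, against 94.4, 86.6, 75.1, 73.9 and 79.8 CPM in the 5 KO sham livers. Every KO 24 h liver lay below every sham liver, and replicate 1, a female, was the highest of the 4. Clec4f fell to 28.9 ± 19.1 CPM, against 82.0 ± 8.6 CPM (SD, n = 4 and 5), a log2 change of -1.67 (SE 0.38, edgeR adjusted p = 0.00174). The complement receptor gene Vsig4 had 12.3, 4.64, 6.70 and 6.31 CPM in KO 24 h livers, against 23.8, 19.4, 19.2, 20.6 and 13.6 CPM in KO sham livers. These groups were also apart, with a log2 change of -1.50 (SE 0.42, edgeR adjusted p = 0.00834). Timd4, the phosphatidylserine receptor gene, had 4.01, 1.09, 1.15 and 1.76 CPM in KO 24 h livers, against 6.63, 5.33, 4.94, 6.74 and 5.56 CPM in KO sham livers. Its groups did not overlap either, and it fell by 1.76 on the log2 scale (SE 0.50, edgeR adjusted p = 0.0102).

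Cd5l, for the secreted macrophage protein, had 99.8, 11.5, 21.6 and 32.2 CPM in KO 24 h livers, against 134, 121, 69.0, 105 and 79.8 CPM in KO sham livers. Replicate 1 at 24 h lay within the sham range and the other 3 lay below it, and the log2 change was -1.62 (SE 0.47, edgeR adjusted p = 0.0104). The macrophage antigen gene Adgre1 had 6.79, 1.03, 1.55 and 3.05 CPM in KO 24 h livers, against 13.6, 8.65, 5.41, 14.9 and 7.47 CPM in KO sham livers. Here too replicate 1 alone overlapped the sham livers, and the log2 change of -2.04 (SE 0.54, edgeR adjusted p = 0.00575) was the most negative of the members. The growth factor receptor gene Csf1r (ENSMUSG00000024621.16, chr18:61100598-61132149, plus strand) had 25.8, 11.3, 8.26 and 12.6 CPM in KO 24 h livers, against 52.8, 46.4, 29.3, 44.2 and 34.5 CPM in KO sham livers. All 4 lay below all 5, and the log2 change was -1.65 (SE 0.37, edgeR adjusted p = 0.00178).

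The C1q chain genes had smaller estimates than the 6 genes above. C1qc had 50.3, 20.7, 22.9 and 28.4 CPM in KO 24 h livers, against 65.8, 79.8, 53.5, 44.0 and 55.3 CPM in KO sham livers, and fell by 1.09 on the log2 scale (SE 0.28, edgeR adjusted p = 0.00491). C1qa averaged 36.8 ± 14.6 CPM in KO 24 h livers and 65.8 ± 18.9 CPM in KO sham livers (SD, n = 4 and 5), with a log2 change of -0.95 (SE 0.27, edgeR adjusted p = 0.0105). C1qb averaged 36.8 ± 11.3 CPM in KO 24 h livers and 61.6 ± 17.6 CPM in KO sham livers, with a log2 change of -0.84 (SE 0.27, edgeR adjusted p = 0.019). For all 3 chains the ranges of the groups overlapped. Within a library, the log2 ratio of C1qa to Clec4f lay between 0.03 and 0.865 in KO 24 h livers, against -0.87 to 0.09 in KO sham livers, so C1qa was high relative to Clec4f at 24 h, with 1 sham liver inside the 24 h range. These ratios are of CPM without correction for length and serve only to compare libraries.

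Clec4f, Vsig4, Timd4, C1qc and Csf1r kept their calls in every alternative run, including those that left out each library in turn. In a fit of the KO 24 h and KO sham libraries alone, those 5 members passed, and without the sex term 6 did, with Adgre1 as the sixth. C1qb also missed the threshold without KO sham replicate 1 or without KO 24 h replicate 2, 3 or 4, and Cd5l without KO 24 h replicate 2.

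**Figure D2:**
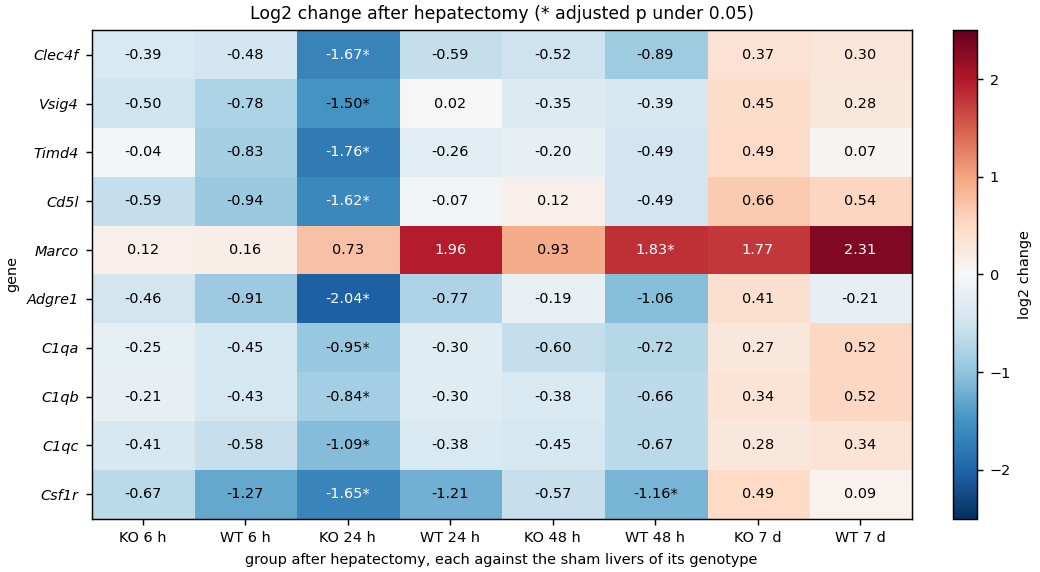
Log2 change of each member (rows) in each group after hepatectomy against the sham livers of its genotype (columns, KO left of WT at each time), from edgeR, with an asterisk where the adjusted p was under 0.05. The KO 24 h column holds 9 lower members, and Marco, at 0.73 there, is positive in all 8 columns, though only 0.12 (KO) and 0.16 (WT) at 6 h.

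Other macrophage genes moved with the members in KO livers at 24 h. Their lists, like those of other cells below, were chosen with earlier results of these data known and are no independent support. Of 18 further genes of resident macrophages, 11 were lower and 1 was higher than in KO sham livers, with a median log2 change of -0.99. The transcription factor gene Maf had a log2 change of -0.94 (SE 0.17, edgeR adjusted p = 0.000246) and the immune receptor gene Lilra5 one of -2.20 (SE 0.47, adjusted p = 0.00113). Hpgd, for an enzyme that inactivates prostaglandins, averaged 18.4 CPM in KO 24 h livers and 58.4 CPM in KO sham livers (log2 change -1.89, SE 0.44, edgeR adjusted p = 0.00221). Id3, for a transcriptional regulator also found in other liver cells, rose by 1.18 (SE 0.44, edgeR adjusted p = 0.0437). Of 14 genes shared by myeloid cells 7 were lower and 0 higher, among them Cybb, for the phagocyte oxidase chain (log2 change -1.91, SE 0.39, edgeR adjusted p = 0.000821). Of 10 genes of recruited monocytes 0 were lower and 0 higher, with a median log2 change of -0.45, and their summed level was 11.4 to 15.8 CPM in KO 24 h livers, against 12.1 to 16.7 CPM in KO sham livers. Of 7 genes of lipid-associated macrophages 1 was lower (the fatty acid binding protein gene Fabp5), of 7 tested growth factors and niche ligands 1 was lower (the Notch ligand gene Dll4), and of 6 partners and inhibitors of C1 1 was lower (the C1 protease gene C1s1).

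Markers of other cells of the sinusoid were lower in the same livers. Of 12 sinusoidal endothelial genes 7 were lower and 1 higher, with a summed level of 90.0 to 124 CPM in KO 24 h livers, against 133 to 237 CPM in KO sham livers. The endothelial lectin gene Clec4g fell by 1.95 on the log2 scale (SE 0.38, edgeR adjusted p = 0.000548), while Lyve1, a hyaluronan receptor gene, rose by 1.64 (SE 0.53, edgeR adjusted p = 0.0204). Of 10 tested T and NK cell genes 7 were lower, with a summed level of 0.679 to 2.67 CPM in KO 24 h livers, against 3.48 to 9.78 CPM in KO sham livers. Of 5 B cell genes 3 were lower, with sums of 1.18 to 5.77 CPM in KO 24 h livers, against 5.87 to 12.5 CPM in KO sham livers. These sums did not overlap between the groups, and no gene of the 3 lists was at 0 in all libraries of either group. The lymphocyte levels were low all the same. In KO 24 h livers the called T and NK cell genes averaged 0.053 to 0.205 CPM. The called B cell genes averaged 0.028 (Ms4a1), 0.337 (Cd79b) and 2.29 CPM (Ighm). None passed in either direction among 10 neutrophil, 8 stellate, 4 dendritic and 10 hepatocyte genes tested. The part of other cell types in the fall of the members was not tested.

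**Figure D3:**
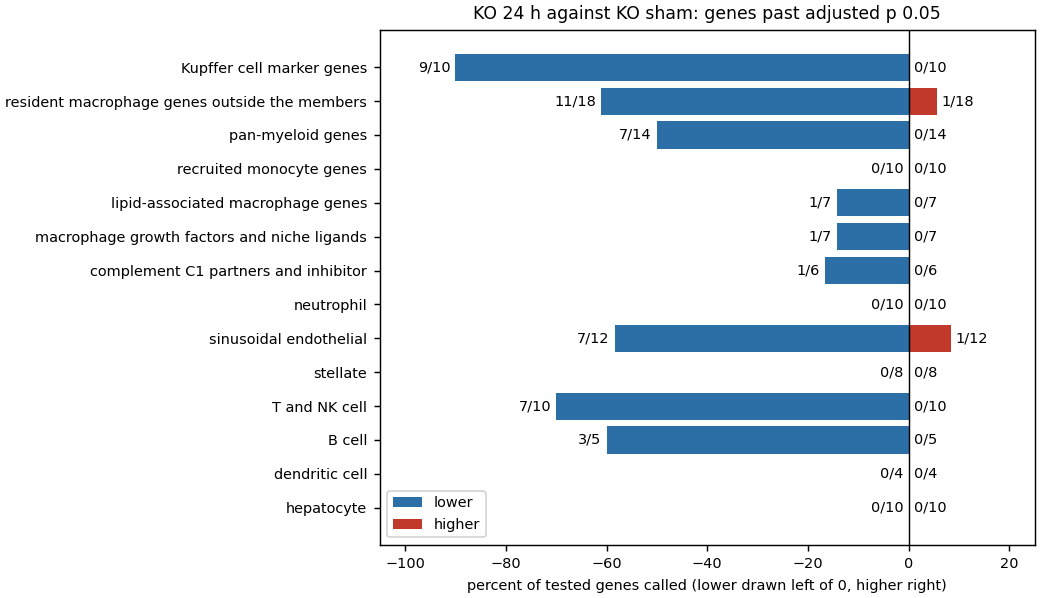
Share of tested genes in each list that passed the test in KO 24 h livers against KO sham livers, lower to the left in blue and higher to the right in red, with counts at the bars. The members (9 of 10), T and NK cell genes (7 of 10) and resident macrophage genes outside the members (11 of 18) extend farthest left, and the recruited monocyte, neutrophil, stellate, dendritic and hepatocyte lists have no bar.

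WT livers at 24 h gave no such call. Against WT sham livers 0 of 10 members passed (edgeR; 2 with an unadjusted p under 0.05; 1 with DESeq2, which was Marco), while 0.925% of all genes did. Clec4f had 44.2, 70.6 and 50.2 CPM in WT 24 h livers, against 95.7, 127, 97.8, 95.8 and 40.5 CPM in WT sham livers. The WT 24 h livers lay below 4 of the 5 sham livers, and the low sham liver was replicate 5. The log2 change of Clec4f was -0.59 (SE 0.40, edgeR adjusted p = 0.506), that of Vsig4 0.02 (SE 0.44, adjusted p = 0.993) and that of Csf1r -1.21 (SE 0.40, adjusted p = 0.134).

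Set directly against each other at 24 h, KO livers were below WT livers in the fitted estimate of all 10 members, and 3 passed the test (7.5% of all genes were lower). Cd5l had the values given above in KO livers, against 72.3, 176 and 87.3 CPM in WT 24 h livers, a log2 change of -1.65 (SE 0.50, edgeR adjusted p = 0.0223). Vsig4 fell to 7.50 ± 3.35 CPM in KO livers, against 18.6 ± 8.0 CPM in WT livers (SD, n = 4 and 3), a log2 change of -1.43 (SE 0.45, edgeR adjusted p = 0.0285). Adgre1 averaged 3.11 ± 2.60 CPM in KO livers and 8.33 ± 4.38 CPM in WT livers, a log2 change of -1.61 (SE 0.57, edgeR adjusted p = 0.0447). KO replicate 1, a female, overlapped the WT livers in each of these genes. The count was 0 in the compared groups alone or without the sex term. It was also 0 without WT 24 h replicate 2 or KO 24 h replicate 2, 3 or 4, was 1 without WT 24 h replicate 3, and reached 7 without KO 24 h replicate 1. In the same contrast 8 of 12 sinusoidal endothelial genes and 6 of 18 further resident macrophage genes were lower, with endothelial sums of 90.0 to 124 CPM in KO livers, against 136 to 307 CPM in WT livers. Id3, of the same macrophage list, was higher in KO livers (log2 change 1.77, SE 0.53, edgeR adjusted p = 0.0209). The stellate gene Des was also lower (log2 change -3.01, SE 0.68, edgeR adjusted p = 0.00475). Of 10 hepatocyte genes 2 were higher, Cyp3a11 (2.07, SE 0.58, edgeR adjusted p = 0.0151) and Alb, for albumin (0.95, SE 0.27, adjusted p = 0.0167). WT 24 h replicate 3 stood apart with a summed hepatocyte level of 5.83e+04 CPM, against 1.04e+05 and 1.08e+05 CPM in the other WT 24 h livers, and with 8.93% mitochondrial counts, against 3.17% and 3.64%. The part of these lists and of that library's makeup in the member differences was not tested. In the compared groups alone no gene passed, so these list calls were lost with those of the members.

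The difference between the genotypes in the response to hepatectomy at 24 h had a negative estimate for all 10 members, and 0 of 10 passed (edgeR; 3 with an unadjusted p under 0.05; 0 with DESeq2), while 8.47% of all genes did. It was -1.52 for Vsig4 (SE 0.60, edgeR adjusted p = 0.0985) and -1.55 for Cd5l (SE 0.66, adjusted p = 0.126). A fall in KO livers and none called in WT livers is thus not shown to differ between the genotypes for these genes. Without KO 24 h replicate 1, 3 members (Cd5l, Clec4f and Vsig4) passed. Outside the members, the macrophage genes Hpgd (-2.80, SE 0.62, edgeR adjusted p = 0.00957) and Maf (-0.90, SE 0.25, adjusted p = 0.0255) and the endothelial gene Clec4g (-1.94, SE 0.54, adjusted p = 0.0271) did pass. No gene at all passed this test, these 3 and the 8.47% included, without WT 24 h replicate 3 or in the compared groups alone.

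At 6 h the members had not passed in either genotype. In KO livers 0 of 10 passed against sham (edgeR; 0 with an unadjusted p under 0.05; 0 with DESeq2; 6.62% of all genes passed), with log2 changes of -0.67 to 0.12. Clec4f had 71.6, 36.3 and 57.7 CPM in KO 6 h livers, all below the KO sham livers (log2 change -0.39, SE 0.40, edgeR adjusted p = 0.624). In WT livers 0 of 10 passed (edgeR; 1 with an unadjusted p under 0.05; 1 with DESeq2; 7.86% of all genes), and the lowest estimate was that of Csf1r, at -1.27 (SE 0.42, edgeR adjusted p = 0.0574). Csf1r had 20.4, 12.6 and 26.9 CPM in WT 6 h livers, against 70.9, 87.9, 65.3, 56.3 and 18.5 CPM in WT sham livers. All 3 lay below 4 of the sham livers and around the 6 h sham liver, replicate 5, and without the 6 h sham livers Csf1r passed, as it did with DESeq2, with no sex term, or with no filter on low counts. Between genotypes at 6 h 0 of 10 members passed (edgeR; 0 with an unadjusted p under 0.05; 0 with DESeq2; 0.116% of all genes), and neither did any in the response at 6 h (0 at an unadjusted p under 0.05; 0 with DESeq2; 0% of all genes).

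At 48 h the members had risen in KO livers relative to 24 h in 6 cases, and none passed the test against sham, with a wide spread between livers. Clec4f had 59.6, 39.6, 25.3 and 109 CPM in KO 48 h livers, and Cd5l had 111, 99.3, 37.8 and 213 CPM. Replicate 3, a male, was the lowest and replicate 4, the only female, the highest for both genes. Against KO sham livers 0 of 10 passed (edgeR; 1 with an unadjusted p under 0.05; 0 with DESeq2; 3% of all genes passed), with log2 changes of -0.60 (SE 0.27, C1qa) to 0.93 (SE 0.56, Marco). Against KO 24 h livers, 6 members were higher at 48 h (12.2% of all genes were). They were Adgre1 (log2 change 1.85, SE 0.54, edgeR adjusted p = 0.0118), Cd5l (1.74, SE 0.48, adjusted p = 0.00802), Timd4 (1.56, SE 0.51, adjusted p = 0.0239), Vsig4 (1.16, SE 0.43, adjusted p = 0.0434), Clec4f (1.15, SE 0.38, adjusted p = 0.0258) and Csf1r (1.08, SE 0.38, adjusted p = 0.0338). The C1q chains (0.35 to 0.64) and Marco (0.20) did not pass. The ranges at 48 h and 24 h overlapped for every member, and the count was 1 without KO 48 h replicate 4 or KO 24 h replicate 2, 2 without KO 48 h replicate 1 or KO 24 h replicate 3 or 4, and 3 in the compared groups alone or without the sex term. In the same contrast 7 of 18 further resident macrophage genes, 7 of 14 myeloid genes, 7 of 12 sinusoidal endothelial genes and 4 of 10 T and NK cell genes were higher. The endothelial gene Lyve1 went the other way and was lower (log2 change -2.655, SE 0.59, edgeR adjusted p = 0.00169).

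WT livers at 48 h had 1 lower and 1 higher member against WT sham livers, where 3.62% of all genes were lower and 4.68% higher. Csf1r had 18.1, 30.1, 24.5 and 28.9 CPM in WT 48 h livers, against the sham values above. All 4 lay below 4 of the 5 sham livers, and the log2 change was -1.16 (SE 0.36, edgeR adjusted p = 0.0437). Marco rose to 43.6 ± 39.2 CPM, against 13.7 ± 9.5 CPM in WT sham livers (SD, n = 4 and 5), a log2 change of 1.83 (SE 0.56, edgeR adjusted p = 0.0397). Both calls were lost in the compared groups alone, and leaving out single libraries left 0 or 1 of them. Csf1r missed the threshold without WT sham replicate 1, 2, 3 or 4 or WT 48 h replicate 1, 2 or 3 (edgeR adjusted p of 0.0138 to 0.152 over the libraries left out). Marco missed it without WT sham replicate 1, 2, 4 or 5 or WT 48 h replicate 1, 3 or 4 (edgeR adjusted p of 0.0453 to 0.201), and also without the sex term or the 6 h sham livers. Between the genotypes at 48 h 0 of 10 members passed (edgeR; 0 with an unadjusted p under 0.05; 0 with DESeq2; 0.341% of all genes), likewise in the response at 48 h (0 at an unadjusted p under 0.05; 0 with DESeq2; 0% of all genes). WT livers did not differ by the test between 48 h and 24 h in any member (0 of 10; 0 at an unadjusted p under 0.05; 0 with DESeq2; 0.045% of all genes).

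At 7 d KO livers had the highest median of the 10 groups for 5 members. Clec4f had 82.3, 163 and 119 CPM in KO 7 d livers, and Csf1r 53.9, 89.7 and 53.4 CPM. Replicate 2, a female, was the highest of the 3 for all 10 members, with Cd5l at 324 CPM and Marco at 110.4 CPM. Against KO 24 h livers, 9 members were higher (9.48% of all genes were), with log2 changes of 1.18 (C1qb) to 2.45 (Adgre1). Clec4f changed by 2.04 (SE 0.41, edgeR adjusted p = 0.00145) and Csf1r by 2.15 (SE 0.41, adjusted p = 0.00104), with every KO 7 d liver above every KO 24 h liver. Marco, at 1.04 (SE 0.63, edgeR adjusted p = 0.234), was again the exception. These 9 calls became 0 when only KO 7 d and KO 24 h libraries entered the fit, at edgeR adjusted p-values of up to 0.101, and without KO 7 d replicate 2 the calls of C1qa and C1qb were lost. In the same contrast 12 of 18 further resident macrophage genes, 9 of 14 myeloid genes and 6 of 10 T and NK cell genes were higher. Genes of other lists passed too. Higher were the endothelial genes Clec4g (log2 change 1.90, SE 0.41, edgeR adjusted p = 0.00232), Fcgr2b and Kdr. So were the B cell genes Cd79b, Ighm and Ms4a1, and the growth factor and niche genes Csf1, Tgfb1 and Dll4. The endothelial gene Lyve1 was lower (log2 change -2.38, SE 0.66, edgeR adjusted p = 0.012). In the fit of the KO 7 d and KO 24 h libraries alone 1 gene was lower and 2 were higher among all genes tested, so that nearly all calls of this contrast were lost.

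Against sham livers no member passed at 7 d. In KO livers the estimates were 0.27 to 1.77 (edgeR, 0 of 10; 1 with an unadjusted p under 0.05; 0 with DESeq2; 0% of all genes). Of the members Csf1r alone had ranges that did not overlap, and the share of all genes with ranges apart was not counted. In WT livers they were -0.21 to 2.31 (edgeR, 0 of 10; 1 with an unadjusted p under 0.05; 0 with DESeq2; 0% of all genes). Clec4f had 89.8, 98.8 and 104 CPM in WT 7 d livers, within the range of the WT sham livers. Between WT livers at 7 d and 24 h 0 of 10 passed (edgeR; 4 with an unadjusted p under 0.05; 0 with DESeq2; 0.225% of all genes). Between genotypes at 7 d 0 of 10 passed (edgeR; 0 with an unadjusted p under 0.05; 0 with DESeq2; 0.045% of all genes), and in the response at 7 d none did (0 at an unadjusted p under 0.05; 0 with DESeq2; 0% of all genes). Averaged over all stages, KO against WT gave log2 changes of -0.28 to 0.18 and 0 of 10 calls (edgeR; 0 with an unadjusted p under 0.05; 0 with DESeq2; 2.72% of all genes).

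Marco was the member with positive estimates against sham in all 8 groups after hepatectomy. At 6 h, where all livers were male and the model adjusts for sex, they were only 0.12 in KO and 0.16 in WT. Its mean level at 6 h was below sham, at 7.98 against 12.7 CPM in KO and 6.85 against 13.7 CPM in WT livers. In KO livers it had 55.4, 14.5, 6.44 and 21.3 CPM at 24 h, against 9.83, 32.3, 9.22, 6.67 and 5.25 CPM in KO sham livers. The groups overlapped, and the log2 change of 0.73 (SE 0.56, edgeR adjusted p = 0.336) was positive where the other 9 members had fallen. In WT livers Marco had 21.7, 81.7 and 20.2 CPM at 24 h, and the 4 livers at 48 h had 19.1, 35.4, 101 and 18.5 CPM, against 7.69, 16.5, 26.2, 16.5 and 1.43 CPM in WT sham livers. Single female livers were the highest at both times, 24 h replicate 2 and 48 h replicate 3. The log2 change at 24 h was 1.96 (SE 0.60, edgeR adjusted p = 0.103) and that at 48 h was the only one against sham to pass. At 7 d Marco had 29.5, 110.4 and 16.1 CPM in KO livers. The 3 WT 7 d livers had 23.7, 36.8 and 45.8 CPM. Its log2 changes against sham were 1.77 in KO (SE 0.60, edgeR adjusted p = 1) and 2.31 in WT (SE 0.63, adjusted p = 0.494), and did not pass. With no filter on low counts Marco passed against sham at 24 h in WT livers and at 48 h and 7 d in both genotypes.

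WT 48 h replicate 3 combined the highest Marco level of its group, 101 CPM, with the lowest Clec4f level, 17.1 CPM. In that liver the recruited monocyte genes summed to 89.8 CPM, against 9.91 to 11.7 CPM in the other 3 WT 48 h livers. Its endothelial genes summed to 89.2 CPM, against 166 to 174 CPM in the others. Without this liver, as without 6 others named above, Marco lost its call at 48 h, and the part of monocyte transcripts in its level was not tested. As a ratio within each library, log2 Marco over Clec4f was -1.51 to 0.06 in KO 24 h livers, against -3.93 to -1.42 in KO sham livers. In WT 24 h livers it was -1.32 to 0.21, against -4.83 to -1.90 in WT sham livers. The WT groups did not overlap in this ratio, and the KO groups overlapped by 1 liver of each.

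**Figure D4:**
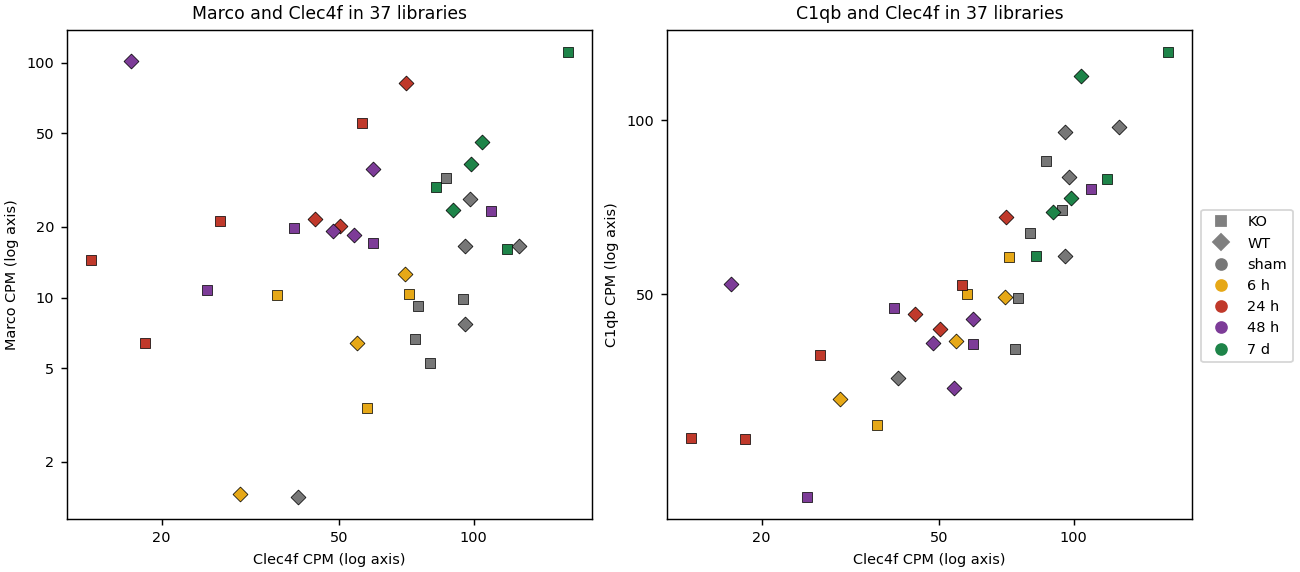
Marco (left) and C1qb (right) against Clec4f, in CPM on log axes, in 37 libraries, coloured by stage, with KO as squares and WT as diamonds. C1qb follows Clec4f across livers, whereas Marco spreads from 1.43 to 110.4 CPM with little relation to it.

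Across the 37 libraries, which share scaling and group structure, the members other than Marco varied together. Pearson r of log2(CPM + 1) over the 36 pairs without Marco lay between 0.760 and 0.981, with a median of 0.870. Over the 9 pairs with Marco it lay between 0.220 and 0.523, with a median of 0.431. The lowest was that of Marco and Clec4f and the highest of all that of C1qa and C1qb, whose log2 ratio stayed within -0.22 and 0.34 over all libraries. By comparison, the log2 ratio of Marco to Clec4f ranged from -4.83 to 2.565. The genes outside the members most like the mean of the 10 were Itgal, for an integrin chain of leukocytes (r = 0.953), Sdc3 (0.950), Pld4 (0.946), Folr2, for a folate receptor of resident macrophages (0.942), and Cd300c2 (0.937). Cfp, for the complement factor properdin (0.927), Tbxas1 (0.924), Tyrobp, for a signalling adaptor of myeloid receptors (0.920), Trpm2 (0.916) and Pilra (0.916) followed. Of 15554 genes outside the members, 110 had r over 0.8, and the median over all was -0.02. These correlations describe the libraries and carry no test.

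In the order of group medians, KO 24 h livers were the lowest of the 10 groups for 9 members, and WT 6 h livers for Marco. The highest median was in KO 7 d livers for 5 members, in WT sham livers for 4 and in WT 7 d livers for Marco. For Clec4f the medians ran from 119 CPM in KO 7 d livers over 98.8 in WT 7 d, 95.8 in WT sham, 79.8 in KO sham, 57.7 in KO 6 h, 54.7 in WT 6 h, 51.1 in WT 48 h, 50.2 in WT 24 h and 49.6 in KO 48 h to 22.7 CPM in KO 24 h livers. For Marco they ran from 36.8 CPM in WT 7 d livers over 29.5 in KO 7 d, 27.3 in WT 48 h, 21.7 in WT 24 h, 18.4 in KO 48 h, 17.9 in KO 24 h, 16.5 in WT sham, 10.2 in KO 6 h and 9.22 in KO sham to 6.44 CPM in WT 6 h livers. Over the 10 members, 88 of 90 pairs of neighbouring groups had overlapping ranges. The exceptions were KO sham above KO 6 h for Clec4f and WT 7 d above KO sham for Cd5l.

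Marco also had the most negative estimate of the members between males and females. Over all groups Marco had a lowest, median and highest level of 1.43, 10.8 and 45.8 CPM in 23 male livers, against 9.22, 24.95 and 110.4 CPM in 14 female livers. The ranges overlapped, and with the groups in the model Marco was lower in males by 1.47 on the log2 scale (SE 0.33, edgeR adjusted p = 0.00587). Males averaged below females in 7 of the 8 groups that held both sexes, WT 7 d livers being the exception. C1qc had 20.5, 39.3 and 90.1 CPM in males, against 28.4, 67.3 and 126.9 CPM in females. The C1q chains were lower in males too, with log2 changes of -0.62 for C1qc (SE 0.15, edgeR adjusted p = 0.0141), -0.58 for C1qa (SE 0.15, adjusted p = 0.0203) and -0.56 for C1qb (SE 0.15, adjusted p = 0.0239), each in 7 of 8 groups. With these, 4 of 10 members were lower in males, while 1.97% of all genes were. The other 6 had estimates of -0.47 (Csf1r) to -0.73 (Cd5l) without passing. All 10 members were lower in males with an unadjusted p under 0.05 (edgeR), a level reached in either direction by 2341 of the 15564 genes tested. The sex estimates were thus not particular to the 4 called members. Marco and C1qc kept the call in every alternative run. C1qa and C1qb lost it without WT sham replicate 5 or KO 48 h replicate 4, and C1qb also without KO sham replicate 2, KO 7 d replicate 1 or the 6 h sham livers. Of 14 myeloid genes 5 were lower in males, of 18 further resident macrophage genes 2, and of the growth factors and niche ligands Csf1, the ligand of the receptor encoded by Csf1r (log2 change -0.63, SE 0.14, edgeR adjusted p = 0.00489). C1ra and C2, partners of C1q in the classical pathway, were higher in males (log2 changes of 0.45 and 0.57, SE 0.12 and 0.15, edgeR adjusted p = 0.0239 and 0.0211). Since the 6 h hepatectomy livers were all male, sex and stage were not balanced over the libraries.

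**Figure D5:**
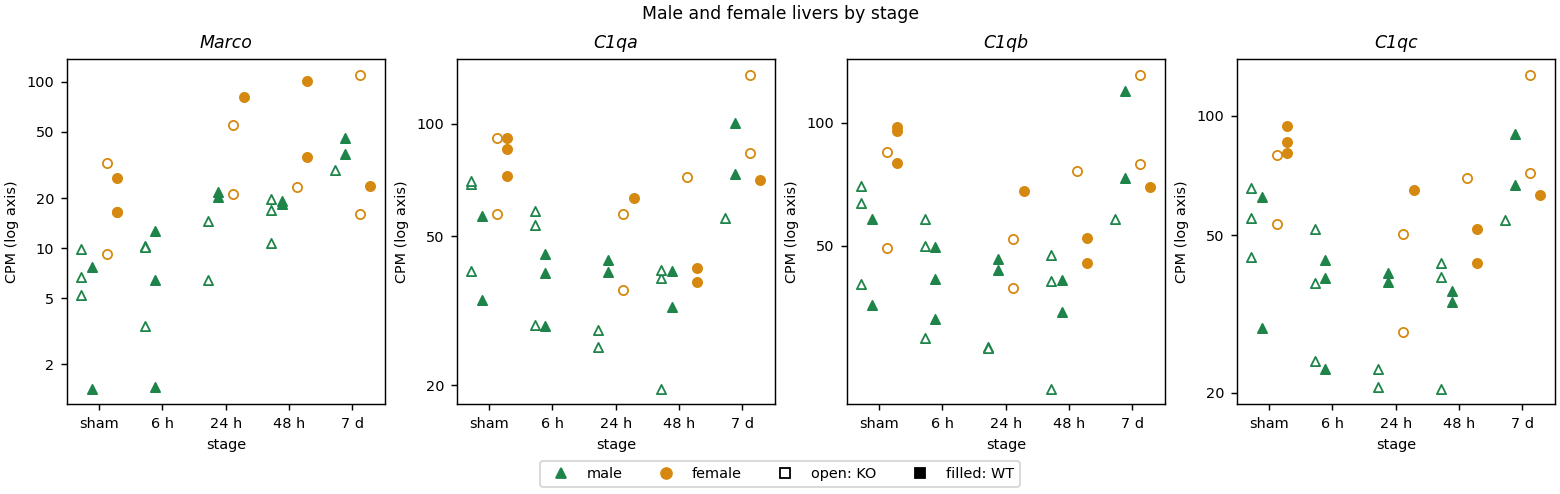
Marco and the C1q chain genes (CPM, log axis) by stage in male livers (green triangles, left) and female livers (orange circles, right), open for KO and filled for WT. Marco in females reaches 110.4 CPM and in males 45.8 CPM, and the 6 h stage holds males only.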

How the data were processed

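Liver RNA was sequenced from 37 samples with a stranded mRNA kit, per the labels' protocols. The submitters' processing notes name STAR 2.5.3a, RSEM 1.3.0 and GRCm38; the tool that made the counts, the annotation release and the strand setting are not given in the sources used here. The authors deposited expected counts per gene that are all whole numbers (55487 genes, 26232544 to 48827025 counts per library). From these, TMM-scaled CPM were computed, and edgeR 4.0.16 (R 4.3.3) quasi-likelihood tests were fitted to all 37 libraries with 10 groups and sex, on the 15564 genes that passed its count filter, with Benjamini-Hochberg adjustment over all of them at a threshold of 0.05. Exon lengths came from GENCODE M21. The fit was repeated with DESeq2 1.42.0, with RLE size factors, on every gene with at least 1 count, with sex dropped from the model, without sham livers taken at 6 h, on the compared groups alone and with each library left out. The code was tested on simulated data. The most alike replicate pair differed beyond sampling noise (chi-square per degree of freedom 32.07). Replicate numbers follow accession order and pair nothing. The members, lists and the rules for naming genes (members all named; list genes by smallest p) were chosen with earlier results of these data known. Counts limit precision most for Timd4, with as few as 24 in a library.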

Additional observations from a re-analysis of the deposited data

Results flagged for a closer look

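Marco in KO sham replicate 2, a female liver, had 32.3 CPM, against 5.25 to 9.83 CPM in the other 4 KO sham livers. Its gap to the nearest liver was 0.831 of the group's range, and it was the 1 value set apart among 50 groups of values checked, where chance sets apart about 1 in 20. Adgre1 at 7 d had mean differences from sham of opposite sign in the genotypes. Its mean was 6.96 CPM above KO sham livers in KO and, as a signed difference, -4.41 CPM against WT sham livers in WT, so the differences stood 11.4 CPM apart. In KO, replicate 2 had 27.8 CPM, while replicates 1 and 3, at 11.3 and 11.8 CPM, lay within the sham range of 5.41 to 14.9 CPM. The WT 7 d livers, at 10.5 to 11.95 CPM, lay within the WT sham range of 4.00 to 20.7 CPM. In the model the difference between the responses was 0.62 on the log2 scale (SE 0.78, edgeR adjusted p = 1), and it did not pass.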

How the results depend on the processing

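No log2 change of a member changed sign among called values under any alternative, and RLE scaling changed no count. With no count filter beyond 1 count, members called became 2 for WT 6 h, 2 for WT 24 h, 1 for KO 48 h, 4 for WT 48 h, 1 for KO 7 d and 1 for WT 7 d against sham, 8 for KO against WT at 24 h, 6 for the response at 24 h, 1 for WT 7 d against WT 24 h, 10 for KO 7 d against KO 24 h and 10 for male against female. Without the sex term they became 1 for WT 6 h, 6 for KO 24 h and 1 for WT 48 h against sham, 0 for KO against WT at 24 h and 3 for KO 48 h against KO 24 h. DESeq2 gave 1 for WT 6 h and 1 for WT 24 h against sham, 4 for KO against WT at 24 h and 5 for male against female. Without the 6 h sham livers the counts were 1 for WT 6 h and 1 for WT 48 h against sham and 3 for male against female. In the compared groups alone they were 5 for KO 24 h and 0 for WT 48 h against sham, 0 for KO against WT at 24 h, 3 for KO 48 h against KO 24 h and 0 for KO 7 d against KO 24 h. Leaving out 1 library at a time gave 0 to 1 for WT 6 h, 7 to 9 for KO 24 h and 0 to 1 for WT 48 h against sham, 0 to 7 for KO against WT at 24 h, 0 to 3 for the response at 24 h, 1 to 7 for KO 48 h against KO 24 h, 7 to 9 for KO 7 d against KO 24 h and 2 to 5 for male against female. The cause of these shifts was not tested, except that the smaller fits hold fewer samples. No paired analysis was possible because the replicate numbers are in accession order and tie no libraries together.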

Other observations

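In WT livers 6 h after hepatectomy, 5 of 10 neutrophil genes were higher than in WT sham livers, while 0 of 10 passed in KO livers at 6 h (edgeR). Of all 15564 genes tested, 647 were higher in the WT contrast and 640 in the KO contrast. S100a9, a calcium-binding protein gene of neutrophils, averaged 22.1 CPM in WT 6 h livers and 1.997 CPM in WT sham livers (log2 change 3.40, SE 0.78, edgeR adjusted p = 0.00879). The summed neutrophil level was 14.4 to 30.8 CPM in KO 6 h livers, against 33.3 to 84.3 CPM in WT 6 h livers, and that sum was not tested. It was 3.96 to 11.15 CPM in KO sham livers, so every KO 6 h liver lay above every KO sham liver. In WT sham livers it was 4.95 to 17.1 CPM. Set directly against each other at 6 h, KO and WT livers differed by the test in 0 of 10 neutrophil genes (edgeR, median log2 change -1.29). The difference between the genotypes in the response at 6 h passed for no gene of any list (edgeR). A difference between the genotypes in neutrophil genes is thus not shown. In WT livers at 48 h, 4 of 6 partners and inhibitors of C1 were lower than in WT sham livers, among them C2, for the complement component cleaved by C1s (log2 change -1.32, SE 0.27, edgeR adjusted p = 0.00278). KO 7 d replicate 2, the liver with the highest level of every Kupffer cell marker in its group, also had the highest summed recruited monocyte level of its group, 40.15 CPM, against 11.7 and 17.1 CPM in the other KO 7 d livers.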
